A study of Mus musculus with 12 samples.

Results

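The creatine kinases and the enzymes of adenylate energy transfer are described here through 7 genes: Ckm, Ckb, Ckmt2, Ak1, Ampd1, Ampd3 and Gamt. They were taken by symbol, as every probe set whose platform annotation names exactly 1 of these genes and no other. This gave 9 of the 34958 single-gene probe sets on the array, 2 each for Ckm and Ak1 and 1 for each of the other genes. All 7 genes passed the limit on dim signals, and 1 probe set, the second of Ak1, lay below it. Expression was measured in gastrocnemius, the large calf muscle, of 12 male mice at generation 37 of a selection experiment, with a mean age of 84 days (79 to 86 days). All 12 mice came from lines bred for high voluntary wheel running. The 6 mini-muscle arrays are from line 3, whose mice carry an inherited small-muscle phenotype, and the left and right muscles of each animal were pooled. The 6 regular-muscle arrays are from line 8, and only 1 limb, left or right, was sampled per animal. Each group is thus a single closed line, and phenotype, line and limb pooling cannot be told apart.

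Muscle fibres buffer ATP by passing phosphate between ATP and creatine. Creatine kinase catalyses this exchange in the cytosol (Ckm, the muscle subunit, and Ckb, the brain-type subunit) and in the mitochondrial intermembrane space (Ckmt2, the sarcomeric mitochondrial form), and Gamt carries out the final methylation step of creatine synthesis. When ATP use outruns supply, adenylate kinase 1 (Ak1) recovers ATP from ADP and leaves AMP, which AMP deaminase converts to IMP. Ampd1 is the AMP deaminase of skeletal muscle, and Ampd3 is the form first known from red blood cells. Fast glycolytic fibres are known for high cytosolic creatine kinase and AMP deaminase, and oxidative fibres for more of the mitochondrial creatine kinase.

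The stretches of 250 bases before the transcript start are shown for the 3 changed genes that the RefSeq promoter table holds. They are also shown for the cytosolic pair Ckm and Ckb. Neither gene of this pair passed on its brightest probe set. Their unequal change passed as deposited but not after quantile normalization. The table (build GRCm38.p6) matched 6 of the 7 genes, in 11 windows, and Ampd1 is named only. Ampd3 has 3 windows, of which the most upstream is printed. Sequences run 5′ to 3′ on the gene's strand and capitals mark a match to the E-box core CANNTG, which basic helix-loop-helix factors bind. In Ckb they mark the TATA box letters TATAAA. Both were searched on both strands.
Ckmt2, chr13:91876886-91877135, minus strand: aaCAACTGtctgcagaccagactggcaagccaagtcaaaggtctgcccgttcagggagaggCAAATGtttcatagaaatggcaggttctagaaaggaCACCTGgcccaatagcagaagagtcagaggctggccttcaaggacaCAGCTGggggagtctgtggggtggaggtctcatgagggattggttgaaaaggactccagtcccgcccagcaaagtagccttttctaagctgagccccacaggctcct
Ampd3, chr7:110768372-110768621, plus strand: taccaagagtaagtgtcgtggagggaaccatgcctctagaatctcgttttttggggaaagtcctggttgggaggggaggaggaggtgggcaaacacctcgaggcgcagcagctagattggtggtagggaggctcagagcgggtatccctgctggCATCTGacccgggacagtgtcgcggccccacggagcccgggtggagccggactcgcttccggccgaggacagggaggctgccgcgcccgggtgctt
Gamt, chr10:80261013-80261262, minus strand: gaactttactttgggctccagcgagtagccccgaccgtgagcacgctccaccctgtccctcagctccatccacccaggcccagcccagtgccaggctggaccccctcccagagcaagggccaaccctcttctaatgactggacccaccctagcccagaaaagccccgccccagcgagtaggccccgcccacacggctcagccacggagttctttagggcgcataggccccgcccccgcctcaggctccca
Ckm, chr7:19410844-19411093, plus strand: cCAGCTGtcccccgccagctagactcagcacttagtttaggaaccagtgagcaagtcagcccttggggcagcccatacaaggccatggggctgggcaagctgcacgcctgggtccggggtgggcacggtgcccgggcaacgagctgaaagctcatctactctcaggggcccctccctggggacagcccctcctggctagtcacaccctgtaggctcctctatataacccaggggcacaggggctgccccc
Ckb, chr12:111672339-111672588, minus strand: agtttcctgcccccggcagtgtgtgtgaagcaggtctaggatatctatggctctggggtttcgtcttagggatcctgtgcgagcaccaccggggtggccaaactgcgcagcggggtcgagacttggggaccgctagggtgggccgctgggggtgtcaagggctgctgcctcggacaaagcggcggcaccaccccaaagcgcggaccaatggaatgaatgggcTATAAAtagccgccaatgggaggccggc
The Ckmt2 window held 4 E-boxes, which begin 248, 189, 153 and 107 bases before the start. The Ckm and Ampd3 windows shown each held 1, and those of Gamt and Ckb held 0. Of all 32851 windows of this length, 66.2% held at least 1 E-box, so its presence is common. TATAAA stood 28 bases before the start of Ckb and in none of the other 10 windows, against 12.4% of all windows. Only these exact letters were searched, so a similar stretch, such as tatataa in the Ckm window, was not counted. AAGGTCA, a nuclear receptor motif, was found on either strand in 1 of the 11 windows, the third of Ak1, against 4.08% of all windows. These are letter matches and not measured binding sites.

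Of the 7 genes, Ampd3 and Ckmt2 were higher and Ampd1 and Gamt lower in mini-muscle, while Ckm, Ckb and Ak1 did not pass the test. A gene was called at an adjusted p under 0.05 from limma over the 9097 genes above the dim limit (log2 8.56). Each difference is the mini-muscle mean less the regular-muscle mean of log2 intensity, with n = 6 arrays per group and the standard error (SE) of the fit. Over all genes tested 26.7% were called, 14.9% as higher and 11.8% as lower. The median difference was -0.14 over the 7 genes and 0.03 over all genes. The plot of all genes tested places Ampd3 and Gamt toward the edges of the cloud and the other 5 genes nearer to 0. In bulk muscle, fewer fibres or cells of a type and less RNA in each of them cannot be told apart.

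**Figure D1:**
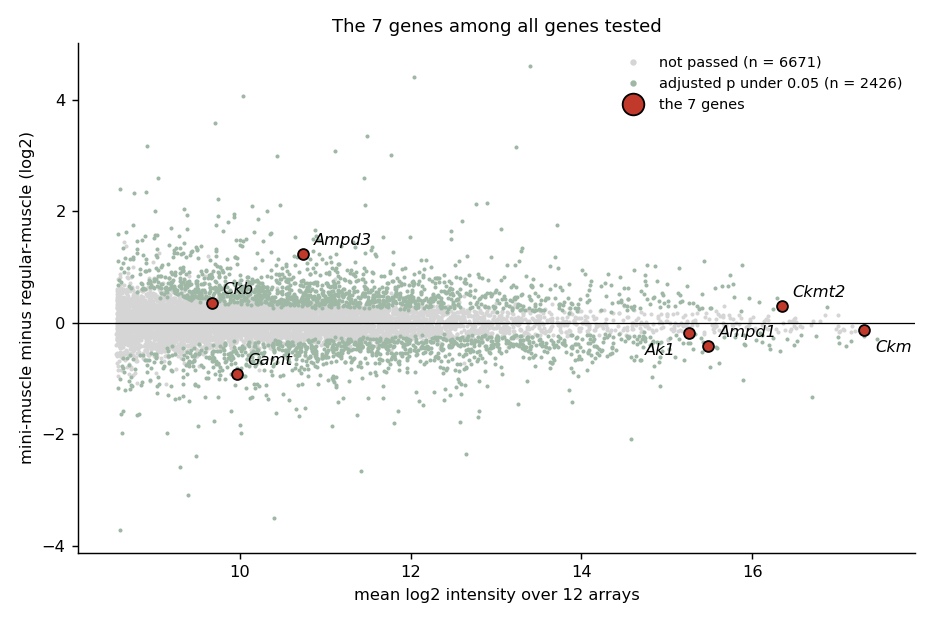
Difference between the groups (log2, mini-muscle minus regular-muscle) against the mean log2 intensity over 12 arrays for all 9097 genes tested, with the 7 genes marked by large red points. Ampd3 lies highest at 1.23 and Gamt lowest at -0.92 among the 7, and Ckm lies at the bright end near 0.

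The AMP deaminases moved in opposite directions. Ampd3 was 2.35-fold higher in mini-muscle, and Ampd1 was 1.33-fold lower. On the intensity scale Ampd3 (probe set 1422573_at) read 1806, 2886 and 3097 as the lowest, median and highest mini-muscle array, and 903, 1098 and 1568 in regular muscle. Every mini-muscle array was above every regular-muscle array, which was so, in either direction, for 13.0% of all genes. The lowest mini-muscle array, replicate 5, and the highest regular-muscle array, replicate 3, came nearest to each other. The log2 means were 11.36 ± 0.30 (SD) and 10.12 ± 0.28, a difference of 1.23 (SE 0.15, 95% interval 0.92 to 1.55, adjusted p = 7.3e-06). It was the 104th largest positive difference among the genes tested, and 98.2% of them differed by less in either direction.

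Because Ampd3 is also the red blood cell form, red cell markers were read on the same arrays. Of the 5 listed, 3 were read by a single-gene probe set (Hba-a1, Alas2 and Slc4a1), all below the dim limit. Their summed intensity ran from 87.9 to 509 in mini-muscle and from 94.5 to 876 in regular muscle, so the groups overlapped. Signals this dim cannot show whether red cell content differed. The part of red cells in the Ampd3 values was not tested.

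Ampd1 (1434722_at) read 28828, 40946 and 48357 as the lowest, median and highest mini-muscle array and 45462, 52290 and 63618 in regular muscle. Of the mini-muscle arrays, 5 lay below every regular-muscle array, and replicate 5 lay within their range. The log2 means were 15.28 ± 0.26 and 15.69 ± 0.17, a difference of -0.42 (SE 0.11, 95% interval -0.64 to -0.19, adjusted p = 0.0067). In the separate fit over all 34958 single-gene probe sets, where 8.92% were called (5.00% higher and 3.91% lower), Ampd1 also passed (adjusted p = 0.021), but not with median-centred arrays (0.17) or without regular-muscle replicate 2 (0.061). Ampd2, the third AMP deaminase, which predominates in liver and other tissues, was below the dim limit on both of its probe sets. Its brighter one read log2 8.13 ± 0.51 and 8.41 ± 0.45 and did not pass over all single-gene probe sets (adjusted p = 0.71).

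Among the creatine kinases, the mitochondrial form Ckmt2 was 1.24-fold higher in mini-muscle. Its probe set (1428722_at) read 84105, 90763 and 104293 as the lowest, median and highest mini-muscle array and 59493, 74372 and 92250 in regular muscle. All 6 mini-muscle arrays were above the regular-muscle mean and 3 were above every regular-muscle array, of which replicate 4 was the highest. The log2 means were 16.50 ± 0.12 and 16.19 ± 0.21, a difference of 0.31 (SE 0.09, 95% interval 0.12 to 0.49, adjusted p = 0.013). The call ended with median-centred arrays (0.32, adjusted p = 0.099), without the intensity trend in the variance (adjusted p = 0.051) and in the fit over all single-gene probe sets (adjusted p = 0.055). Without regular-muscle replicate 4 the last of these became 0.014, with a difference of 0.37. In the gene fit with quantile-normalized arrays Ckmt2 differed by 0.39 (adjusted p = 3.4e-04). The 71 genes with a mean above log2 16, Ckmt2 among them, had a median difference of -0.11 as deposited. After quantile normalization that median was 0.011.

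Ckm, the muscle-type cytosolic subunit, gave different results on its probe sets. The brighter one (1417614_at) read 141280, 156540 and 168089 as the lowest, median and highest mini-muscle array and 153634, 169196 and 192393 in regular muscle. The groups overlapped, with 2 mini-muscle arrays below every regular-muscle array. Its log2 difference was -0.14 (SE 0.07, 95% interval -0.28 to 0.0054, adjusted p = 0.15), which turned to 0.011 after quantile normalization. The 18 genes with a mean above log2 17, Ckm among them, had a median difference of -0.15 as deposited and 2.5e-04 after quantile normalization. The dimmer Ckm probe set (1444643_at) read 7309, 9225 and 10135 in mini-muscle and 10235, 11687 and 13970 in regular muscle. Here no array of one group overlapped the other, a separation seen in 5.46% of single-gene probe sets, and the highest mini-muscle array stood just below the lowest regular-muscle array. Over all single-gene probe sets it fell by 0.41 on the log2 scale (SE 0.09, adjusted p = 0.0067), and did not pass with median-centred arrays (adjusted p = 0.097).

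Ckb, the brain-type subunit, did not pass. Its only probe set (1455106_a_at) read 727, 922 and 1106 as the lowest, median and highest mini-muscle array and 537, 737 and 923 in regular muscle. All 6 mini-muscle arrays were above the regular-muscle mean, and 3 of them were above every regular-muscle array. The log2 difference was 0.35 (SE 0.15, 95% interval 0.025 to 0.67, adjusted p = 0.11). Smooth muscle and nerve also express Ckb. Of the smooth muscle markers 4 were tested and 1, Smtn, was higher, and the list of 5 summed to 13339 to 17457 intensity units in mini-muscle and 10192 to 14229 in regular muscle. The 4 nerve and Schwann cell markers measured summed to 6969 to 19699 and 7138 to 19466, and 0 of the 3 tested passed at an adjusted p under 0.05. The part of these cells in the Ckb values was not tested.

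**Figure D2:**
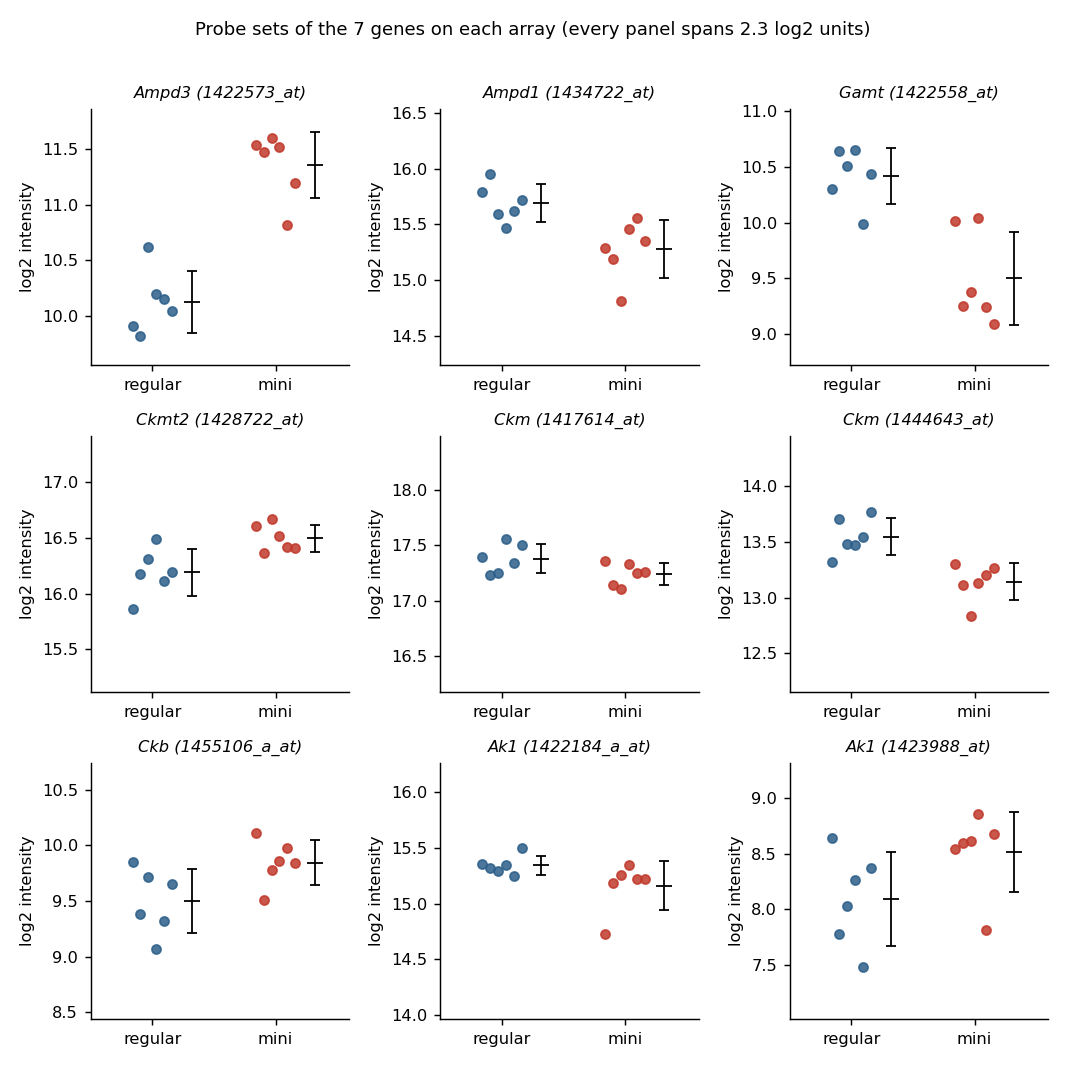
Log2 intensity of each of the 9 probe sets on every array, 6 regular-muscle (blue) and 6 mini-muscle (red), with the mean ± SD beside each group. Every panel spans the same log2 range, so vertical distances compare directly. The groups are apart for Ampd3 and for the dimmer Ckm probe set, and overlap in the other 7 panels.

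Gamt, which makes creatine from guanidinoacetate, was 1.89-fold lower in mini-muscle. Its probe set (1422558_at) read 545, 637 and 1053 as the lowest, median and highest mini-muscle array and 1015, 1421 and 1609 in regular muscle. Mini-muscle replicates 1 and 4 were the high ones and lay just above the lowest regular-muscle array, replicate 5, while the other 4 lay below all regular-muscle arrays. The log2 means were 9.50 ± 0.42 and 10.42 ± 0.25, a difference of -0.92 (SE 0.18, 95% interval -1.29 to -0.55, adjusted p = 7.7e-04).

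The enzyme before Gamt, Gatm, which makes guanidinoacetate mainly in kidney and pancreas, was below the dim limit, at log2 8.39 ± 0.47 and 8.05 ± 0.75 (adjusted p = 0.68 over all single-gene probe sets). By contrast Slc6a8, the transporter that brings creatine into the fibre, was higher in mini-muscle. It read log2 12.85 to 13.08 in mini-muscle and 12.31 to 12.83 in regular muscle, with no overlap, and differed by 0.37 (SE 0.09, adjusted p = 0.0034). Its second probe set gave 0.48 (adjusted p = 0.0074 over all single-gene probe sets). Creatine synthesis and uptake thus differed in direction at the transcript level between Gamt and Slc6a8.

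Most fibroblast markers moved in the direction of Gamt, which was also the direction of Ampd1. Of the 6 tested, 4 were lower and 0 higher, and their summed intensity ran from 24853 to 43129 in mini-muscle and from 44467 to 69826 in regular muscle. Macrophage markers summed to 3306 to 3776 and 3645 to 5756, with 2 of the 3 tested lower. The 3 adipocyte markers measured summed to 1275 to 3648 and 2465 to 5058, and the 1 tested, Adipoq, differed by -0.41 and did not pass (adjusted p = 0.22). The part of these cells in the Gamt values was not tested.

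Ak1, the cytosolic adenylate kinase of muscle, did not pass. The brighter probe set (1422184_a_at) read 27137, 38233 and 41846 as the lowest, median and highest mini-muscle array and 39071, 41426 and 46445 in regular muscle. Mini-muscle replicate 1 stood well below the other 11 arrays, which overlapped. The log2 difference was -0.19 (SE 0.09, 95% interval -0.37 to -0.0025, adjusted p = 0.13), and -0.10 without that array. The dim probe set (1423988_at) read 224, 389 and 462 in mini-muscle and 178, 285 and 399 in regular muscle, with a difference in the other direction of 0.42 (SE 0.27, adjusted p = 0.46 over all single-gene probe sets).

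Whether related enzymes changed unequally was asked within each array, where the array's overall scale cancels. A shift that depends on brightness does not cancel. As deposited, the median difference was -0.15 for the 18 genes above log2 17, Ckm among them. It was 0.05 for the 6296 genes from log2 9 to 12, Ckb and Ampd3 among them. The log2 signal of 1 gene was subtracted from that of its partner, 4 pairs were compared, and the group means were compared by an exact permutation test (two-sided, all assignments of the arrays to groups of 6), with Benjamini-Hochberg adjustment over the 4 pairs. Such a difference shows unequal change and no ratio of transcripts. The intervals are from the pooled within-group SD.

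Ampd3 changed relative to Ampd1 by 1.65 (95% interval 1.05 to 2.25), or 3.14-fold, with all 6 mini-muscle arrays (-4.74 to -3.22) above all regular-muscle arrays (-6.14 to -4.98). The exact permutation p was 0.0022, the smallest this design allows, and 0.0043 after adjustment. Ckmt2 changed relative to Ckm by 0.44 (95% interval 0.20 to 0.68), also without overlap, at -0.85 to -0.44 and -1.54 to -0.94 (exact permutation, adjusted p = 0.0043). Ckb changed relative to Ckm by 0.48 (95% interval 0.14 to 0.83), and 5 of 6 mini-muscle arrays were above all regular-muscle arrays (exact permutation, adjusted p = 0.012). After quantile normalization the last value was 0.28 and did not pass (exact permutation, adjusted p = 0.089). For Ak1 relative to Ckm the difference was -0.05 (95% interval -0.32 to 0.22, exact permutation, adjusted p = 0.84). It turned to 0.39 and passed when all probe sets of a gene were averaged (exact permutation, adjusted p = 0.030).

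**Figure D3:**
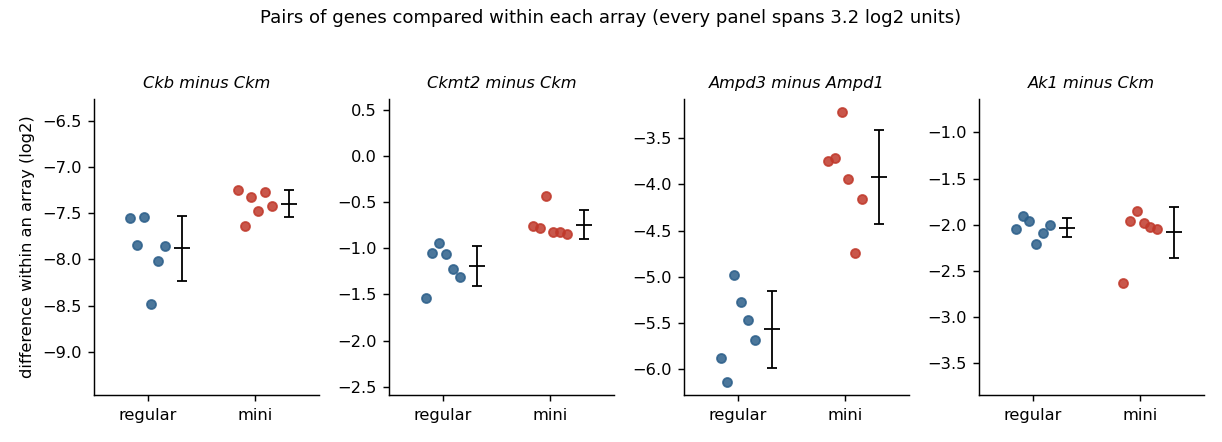
Within-array log2 differences between the brightest probe sets of 4 pairs of genes on 6 regular-muscle (blue) and 6 mini-muscle (red) arrays, with the mean ± SD beside each group and the same vertical span in every panel. Mini-muscle lies above regular muscle without overlap for Ckmt2 minus Ckm and for Ampd3 minus Ampd1, and the groups overlap for Ak1 minus Ckm.

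In the wider pathway, 34 further genes were listed, 29 of them were read by a single-gene probe set and 20 passed the dim limit. Of these 20, 3 were higher, 3 lower and 14 did not pass, which is 30% called against 26.7% of all genes, and the median difference was -0.09 against 0.03. The list as a whole therefore stood near the background, and its calls are described singly.

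Among the other adenylate kinases, Ak4, the mitochondrial matrix form, was 3.37-fold higher in mini-muscle, at log2 10.59 ± 0.29 against 8.84 ± 0.23. The difference was 1.75 (SE 0.16, adjusted p = 2.6e-07), and no array of one group overlapped the other. A second Ak4 probe set gave 1.86 (SE 0.17, adjusted p = 8.9e-07 over all single-gene probe sets), and its 3 remaining probe sets, all below the dim limit, did not pass. The matrix GTP:AMP phosphotransferase Ak3 differed by -0.24 (adjusted p = 0.081).

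In the purine nucleotide cycle, which returns IMP to AMP, the muscle adenylosuccinate synthase Adss1 (annotated under its older symbol Adssl1) fell by 0.36 on the log2 scale (SE 0.06, adjusted p = 3.6e-04). It read 15.01 ± 0.09 in mini-muscle and 15.37 ± 0.10 in regular muscle without overlap. The lyase Adsl, which completes the cycle, differed by -0.11 (adjusted p = 0.45), and Adss2, the synthase of other tissues, by 0.05 (adjusted p = 0.79). Ampd1 and Adss1, the muscle forms of the cycle, were thus both lower. Of the nucleotidases and salvage enzymes, 7 were tested. Xdh, which oxidises hypoxanthine and xanthine to uric acid, fell by 0.85 (SE 0.18, adjusted p = 0.0015) with regular-muscle replicate 4 within the mini-muscle range, and the other 6 did not pass.

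Of the proteins that carry ATP and ADP across the mitochondrial membranes, 1 of 5 was called. The outer membrane channel Vdac3 fell by 0.27 (SE 0.06, adjusted p = 0.0019) without overlap, a call lost with median-centred arrays (adjusted p = 0.14). Slc25a4, the muscle ATP and ADP exchanger, differed by -0.063 (adjusted p = 0.47), which turned to 0.071 with quantile-normalized arrays. Its probe sets disagreed: another bright one averaged log2 16.05 in mini-muscle and 16.61 in regular muscle, without overlap, and fell by 0.57 (SE 0.07, adjusted p = 3.8e-05 over all single-gene probe sets). The remaining probe sets differed by -0.11 and -0.08 and did not pass (adjusted p = 0.50 and 0.84 in the same fit). With averaged probe sets the gene differed by -0.20 and passed (adjusted p = 0.027). Nme1, a nucleoside diphosphate kinase, was 0.47 higher (SE 0.16, adjusted p = 0.033). That call was lost in 8 of the 12 fits without 1 array and with median-centred arrays (adjusted p = 0.063). A second Nme1 probe set was 0.59 higher without overlap (SE 0.13, adjusted p = 0.0051 over all single-gene probe sets), and averaged probe sets gave 0.53 (adjusted p = 0.011). The signal of Nme1 may be shared with the similar gene Nme2, which differed by -0.12 (adjusted p = 0.24).

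**Figure D4:**
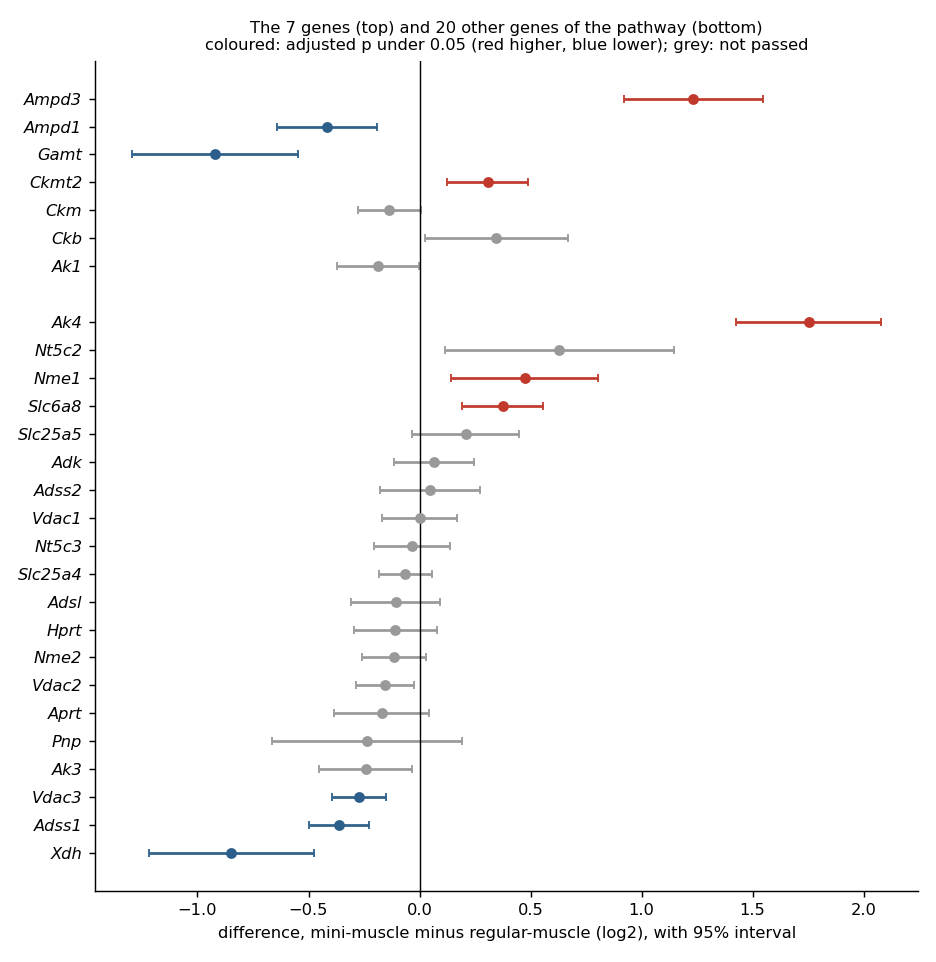
Log2 difference, mini-muscle minus regular-muscle, with its 95% interval from limma for the 7 genes (top) and the 20 tested genes of the pathway list (bottom, ordered by difference). Coloured points passed at an adjusted p under 0.05 (red higher, blue lower), grey points did not. Ak4 at 1.75 and Ampd3 at 1.23 lie farthest to the right, and Gamt at -0.92 and Xdh at -0.85 farthest to the left.

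Fibre type markers were read on the same arrays. Myh4, the type IIb heavy chain, fell by 1.33 (SE 0.13, adjusted p = 8.3e-07, with a difference of -2.22 for averaged probe sets), and the slow heavy chain Myh7 was 0.99 higher (SE 0.11, adjusted p = 2.9e-06). Myh1, of type IIx fibres, was 0.29 higher (adjusted p = 0.0036, and 0.065 with median-centred arrays), or 1.06 higher with averaged probe sets (adjusted p = 0.00085), and Myh2, of type IIa, differed by 0.15 (adjusted p = 0.32, and 0.019 with quantile-normalized arrays). All 6 slow fibre markers were higher, and their summed intensity ran from 235892 to 324096 in mini-muscle and from 125670 to 195966 in regular muscle. The 6 skeletal muscle fibre markers, 4 of them isoforms typical of fast fibres, were all above the dim limit and summed to 824865 to 930003 and 896445 to 1085481. Of these 6, 2 were lower and 0 higher: the fast myosin light chain Mylpf fell by 0.33 (adjusted p = 4e-04) and the fast troponin T gene Tnnt3 fell by 0.29 (adjusted p = 0.00069). The part of fibre type in the values of the 7 genes was not tested.

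Array medians overlapped between the groups, at 213 to 275 intensity units in mini-muscle and 212 to 274 in regular muscle (exact permutation on log2 values, adjusted p = 0.89). The log2 difference between the 3′ and 5′ Gapdh control probe sets was 0.08 higher in mini-muscle, at -0.19 to -0.09 against -0.24 to -0.15 (exact permutation, adjusted p = 0.039), and that of the actin controls did not pass (adjusted p = 0.35). The part of this shift in the results was not tested.

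For the 4 called genes, the genes with the most similar array-to-array pattern were sought by Pearson's correlation of log2 intensity over the 12 arrays after each group was centred on its own mean, as a description only. For Ckmt2 these were Pnpla2 (0.94), the triglyceride lipase, and Fhl1 (0.94), a LIM protein of muscle. They were Egf (0.94) and Atp8a1 (0.89) for Ampd1, Tcta (0.92) and Txnrd2 (0.91) for Ampd3, and Rsl1d1 (0.85) and Acbd6 (0.84) for Gamt. Each was the best among all genes tested, over few arrays, and arrays of a group share their line. Centring removes the group difference, so a similar pattern is not a similar change. Egf was 0.97 higher in mini-muscle (limma, adjusted p = 4.3e-06), while Ampd1 was lower. Pnpla2, Fhl1 and Tcta were called higher, like Ckmt2 and Ampd3, and Atp8a1, Txnrd2, Rsl1d1 and Acbd6 did not pass.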

How the data were processed

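Affymetrix arrays of gastrocnemius from 12 male mice were used, 1 animal per array. The authors deposited linear intensities. They come from MAS5, per the submitters' processing notes, with version and settings not given in the sources used here. MAS5 gives 1 signal per probe set and scales each array to 1 target, so a group difference among bright transcripts can shift others slightly. Arrays have no sequencing depth, and their number limits the precision. Intensities were taken to log2 with no offset or further normalization. Each gene was represented by its brightest probe set over all arrays, and genes below the median of these means (log2 8.56) were left out as dim. Groups were compared with limma 3.58.1 in R 4.3.3 (lmFit, eBayes with an intensity trend, two-sided), with Benjamini-Hochberg adjustment over 9097 genes. A second fit took all 34958 single-gene probe sets without a filter. The procedure was tested on simulated data. Probe set names come from the platform annotation, and 7 of 7 symbols matched the RefSeq table (GRCm38.p6).

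The 7 genes, the lists and the tests were chosen with earlier results of these data known. The text names all 7 genes, up to 4 called pathway genes with the largest difference in each direction (3 in each were called), the fixed pathway genes (1 is not reported here), 4 myosin genes and the 2 genes most similar to each called gene. Ak3, Adsl, Adss2, Nme2, Smtn, Mylpf, Tnnt3, Adipoq and the red cell markers were named after their values were seen. Replicate numbers only name arrays. Alternatives were quantile normalization, median centring, an offset of 64, other dim filters, the mean of all probe sets, no intensity trend and leaving out each array.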

Additional observations from a re-analysis of the deposited data

Results flagged for a closer look

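In groups of 6 arrays, a lowest or highest array whose gap to the next was above Dixon's 95% critical value was looked for in 52 groups of values, where chance gives about 1 in 20, and 7 were found. Mini-muscle replicate 1 was low for the brighter Ak1 probe set (log2 14.73, next 15.18) and therefore for Ak1 minus Ckm (-2.63, next -2.04). Mini-muscle replicate 5 was low for the dim Ak1 probe set (7.81, next 8.54). Mini-muscle replicate 3 was low for Myh4 (15.31, next 16.07) and high for Ckmt2 minus Ckm (-0.44, next -0.75). Regular-muscle replicate 4 was low for Xdh (10.28, next 11.03), and mini-muscle replicate 2 for Vdac3 (15.11, next 15.26).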

How the results depend on the processing

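The differences of Ampd3 (1.19 to 1.24), Ampd1 (-0.42 to -0.40) and Gamt (-0.97 to -0.86) kept direction and call under all 7 other settings of the gene fit and in all 12 fits without 1 array (1.17 to 1.34, -0.47 to -0.32 and -1.03 to -0.84). Ckmt2 did so without each array (0.24 to 0.37), but passed neither with median-centred arrays (0.32, adjusted p = 0.099) nor without the intensity trend (0.31, adjusted p = 0.051), which left 1 gene called higher. With quantile-normalized arrays Ckmt2 passed at 0.39 (adjusted p = 3.4e-04). Ckm was 0.011 after quantile normalization, for the gene and its probe set, and passed with the mean of its probe sets (-0.27, adjusted p = 0.013). Ak1 was 0.12 with the mean of its probe sets. Slc25a4 was 0.071 after quantile normalization. Of the probe sets, 2 were called higher after quantile normalization or with a dim filter, against 1, and 1 lower with median-centred arrays, against 3. Without 1 array these counts were 1 to 2 and 2 to 3, and those of the genes 2 and 2. Ckb minus Ckm was 0.28 after quantile normalization, and 0.36 to 0.55 without 1 array. Ak1 minus Ckm was 0.39 when all probe sets of a gene were averaged (exact permutation, adjusted p = 0.030) and -0.097 to 0.059 without 1 array, above 0 without mini-muscle replicate 1 only. Ckb passed under none of the 6 settings that tested it and was too dim for the strictest dim filter. Over all genes, 1356 were called higher and 1070 lower, against 990 and 651 with median-centred arrays and 862 and 681 with averaged probe sets. Apart from what the construction of a setting shows, the cause was not tested. No paired analysis was possible because the replicate numbers carry no pairing.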
